A study of Mus musculus with 4 samples.

Results

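The aldo-keto reductases described here were 7 mouse genes, Akr1c12, Akr1c13, Akr1c18, Akr1c6, Akr1b3, Akr1b8 and Akr7a5. They were taken by symbol from probe sets that carry a single gene symbol, with the set of highest mean for each gene. Of the 7 genes, 6 were measured in this way, each by 1 probe set, out of 19938 genes in all, and Akr1b3, the aldose reductase of the polyol pathway, was not analysed here. The genes were chosen by the difference between Hif1a-/- and WT values of Akr1c12 in these arrays and by their kinship to it, so that difference is given for the members as a description and without a test.

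The study used 4 Affymetrix whole-transcript arrays, 2 hybridised with RNA of Hif1a-/- and 2 with RNA of WT leukemia stem cells. The cells came from a transplantation model of chronic myeloid leukemia: marrow of 5-fluorouracil-treated Hif1a-/- donors, or of WT C57BL/6 (B6) donors, was infected with a retrovirus for the fusion kinase BCR-ABL and green fluorescent protein and given to B6 recipients. All groups therefore carried BCR-ABL and grew in a WT host for 14 days before GFP+Lin-c-Kit+Sca-1+ marrow cells were sorted, and the labels give an age of 8 weeks and the B6 strain for every sample. The labels name no deleted exon, no Cre driver and no number of animals per sample, and the titles mark the 2 samples of a genotype as biological replicates without naming animals, so each limma p covers only the spread of these samples.

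Aldo-keto reductases are soluble enzymes that use NADPH or NADH to reduce aldehydes and ketones to alcohols. The Akr1c branch acts on steroids, prostaglandins and other lipids, and in the mouse its genes lie side by side on chromosome 13. The Akr1b branch acts mainly on sugar- and lipid-derived aldehydes, and the Akr7a branch reduces aldehydes such as succinic semialdehyde. Akr1c12 has been described as a gene that interleukin-3 regulates in mouse myeloid cells.

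Akr1c12 and Akr1c13 are neighbours in this cluster with 1 gene, Akr1c19, between them among the measured genes, and their promoters are near copies of each other. The RefSeq sequences of the 250 bases before each start (build GRCm38.p6) are shown because these are the members whose groups lay farthest apart. Capitals mark the bases that differ between the aligned pair, 5′ to 3′ on the gene's strand, at chr13:4279400-4279649 (minus strand) for Akr1c12 and chr13:4190937-4191186 (plus strand) for Akr1c13.
Akr1c12: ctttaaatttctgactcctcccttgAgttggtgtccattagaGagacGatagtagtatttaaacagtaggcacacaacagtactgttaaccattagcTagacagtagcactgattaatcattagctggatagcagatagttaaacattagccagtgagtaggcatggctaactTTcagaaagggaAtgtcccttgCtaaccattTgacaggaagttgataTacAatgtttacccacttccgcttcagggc
Akr1c13: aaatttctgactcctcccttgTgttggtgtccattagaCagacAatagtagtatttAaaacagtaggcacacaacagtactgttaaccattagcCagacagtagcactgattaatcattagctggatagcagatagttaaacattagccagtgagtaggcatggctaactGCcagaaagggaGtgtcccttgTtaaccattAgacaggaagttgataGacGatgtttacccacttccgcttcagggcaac
Over 247 aligned columns the pair differed by 11 substitutions and 1 gap, an identity of 95.14%. Over the full 300-base windows the identity of the pair was 93.42%, while the other 44 pairs among the members and the cluster genes with a window lay between 42.63% and 58.49%, with the Akr1c13 and Akr1c19 windows at the upper end. Of the 7 genes, 6 had a promoter window in the RefSeq table.

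Akr1c12 was the member with the lowest Hif1a-/- values relative to WT. Its probe set (10407445) read 9.76 and 9.70 on the log2 scale in Hif1a-/- cells, against 10.37 and 10.56 in WT cells. The groups did not overlap, and the arrays of a genotype lay closer to each other than to any array of the other. The mean was 9.73 ± 0.04 (SD, n = 2) in Hif1a-/- cells and 10.46 ± 0.13 (SD, n = 2) in WT cells, a difference of -0.73 or 1.66-fold. It was the 37th lowest difference of the 19938 genes, and it lay between -0.83 and -0.64 when each array was left out in turn.

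Akr1c13, a paralog of Akr1c12 that in the mouse oxidises hydroxysteroids and other alcohols, also had groups that did not overlap, with a smaller difference. Its probe set (10403303) read 9.69 and 9.76 in Hif1a-/- cells, against 10.05 and 10.12 in WT cells. The mean was 9.73 ± 0.05 (SD, n = 2) in Hif1a-/- cells and 10.08 ± 0.05 (SD, n = 2) in WT cells, a difference of -0.36 or 1.28-fold, and between -0.39 and -0.32 with each array left out. Within each array, the value of Akr1c12 minus that of Akr1c13 was 0.069 and -0.061 in Hif1a-/- cells, against 0.33 and 0.44 in WT cells, so the values of the pair did not move by the same amount. Near-identical paralogs can share signal between their probe sets, and the probe sequences were not analysed here, so how far the pair is measured apart is uncertain.

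Akr1c6, which encodes an enzyme of sex steroid conversion known from mouse liver, read 7.08 and 7.04 in Hif1a-/- cells, against 7.36 and 7.16 in WT cells. Its groups did not overlap, and its Hif1a-/- arrays lay 0.045 apart while its WT arrays lay 0.20 apart. The difference was -0.19, which is less than the distance between the WT arrays, and it was -0.095 without WT replicate 1 and -0.29 without WT replicate 2. With values under the 25th percentile of all values set to that percentile, its difference was 0, so the gene was among the dim ones.

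Akr1c18, the mouse enzyme that inactivates progesterone, read 13.57 and 13.66 in Hif1a-/- cells, against 13.99 and 13.57 in WT cells. Only WT replicate 1 stood apart, and the other 3 arrays lay within a narrow band, so the groups overlapped. The difference was -0.17, against -0.42 for WT replicate 2 minus WT replicate 1, and it turned to 0.040 without WT replicate 1. At 13.57 and above, its values were near the top of the arrays' range, which ended at 14.71.

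Akr1b8, an aldehyde reductase that fibroblast growth factor induces in mouse fibroblasts, read 6.79 and 6.94 in Hif1a-/- cells, against 6.89 and 6.70 in WT cells. The groups overlapped, and the difference of 0.07 turned to -0.030 without WT replicate 2 and to -0.0089 without Hif1a-/- replicate 2. It too was dim, with a difference of 0 under the floor at the 25th percentile.

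Akr7a5, which in the mouse reduces succinic semialdehyde and the dialdehyde of aflatoxin, read 10.07 and 9.91 in Hif1a-/- cells, against 9.54 and 10.15 in WT cells. The Hif1a-/- arrays lay between the WT arrays, which differed by 0.61. The difference of 0.15 between genotypes turned to -0.16 without WT replicate 1 and was 0.45 without WT replicate 2.

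**Figure D1:**
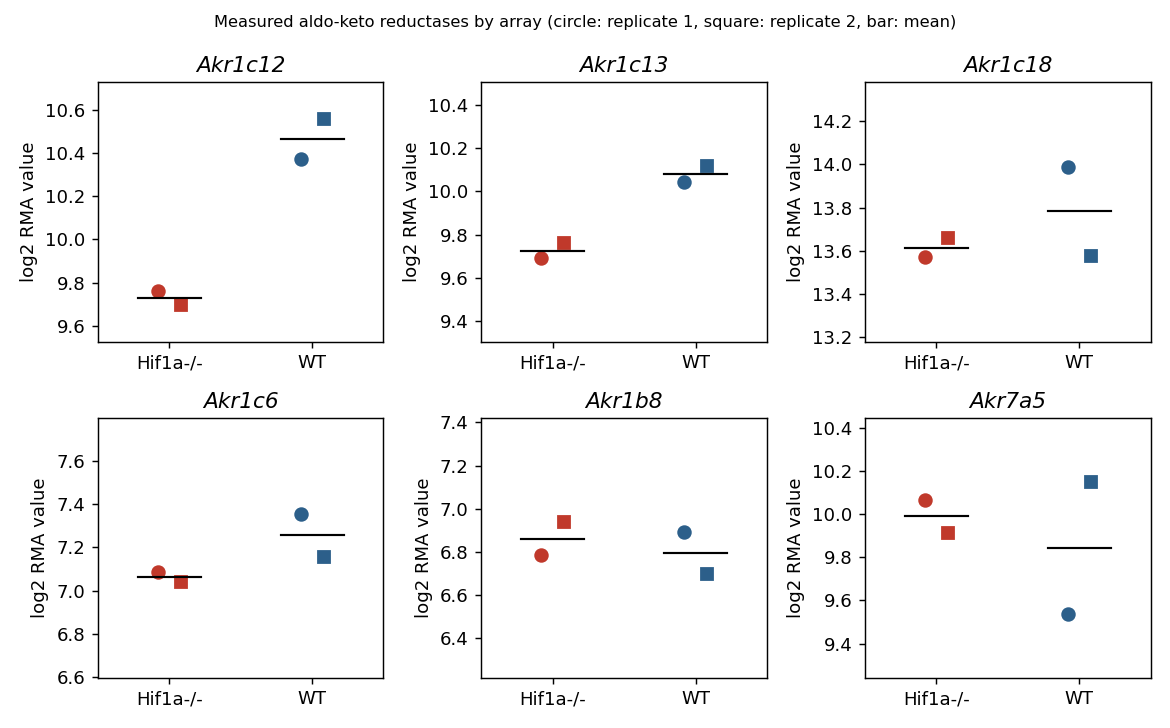
Log2 RMA values of the 6 measured aldo-keto reductases, 1 panel a gene, with Hif1a-/- arrays (red) left of WT arrays (blue); circles are replicate 1, squares replicate 2 and bars the mean of 2 arrays, and every axis spans the same range. The red and blue points are separated for Akr1c12 (9.76 and 9.70 against 10.37 and 10.56), Akr1c13 and Akr1c6, and they overlap for Akr1c18, Akr1b8 and Akr7a5.

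The Hif1a-/- mean was below the WT mean in 4 of the 6 measured members and above it in 2, and the 4 were the Akr1c genes. Over all 19938 genes it was below in 7698 and above in 12240. Leaving out each array in turn gave 4 or 5 lower of 6, and 3 of the 4 Akr1c genes without WT replicate 1. In 3 of the 6 the Hif1a-/- arrays were the 2 lowest, and in 0 the 2 highest, where 9.05% of all genes had them lowest and 15.7% highest. The median difference of the members was -0.18, against 0.03 over all genes. The members' counts and median rest on the contrast by which the genes were chosen.

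The pattern of Akr1c12 was not seen across the whole Akr1c cluster, in which several genes were dim. In chromosomal order the 9 measured genes were Akr1c14, Akr1c18, Akr1c13, Akr1c19, Akr1c12, Akr1c6, Akr1c20, Akr1c21 and Akr1e1, and the Hif1a-/- mean was the lower one in 6 and the higher one in 3. Akr1c19, which lies between Akr1c13 and Akr1c12, read 6.30 and 5.94 in Hif1a-/- cells, against 6.21 and 6.15 in WT cells. Its groups overlapped, with a difference of -0.06 ± 0.16 (SE) and a limma p of 0.727, and the difference was 0 with the floor at the 25th percentile. Akr1c20, on the far side of Akr1c6, read 7.06 and 7.15 in Hif1a-/- cells, against 7.03 and 6.87 in WT cells. It was the only gene of the 9 in which the Hif1a-/- arrays were the 2 highest, where 15.7% of all genes had them highest. They were the 2 lowest in 3 of the 9, all of them members, where 9.05% of all genes had them lowest. Akr1c20 had a difference of 0.15 ± 0.13 (SE) and a limma p of 0.285, and it too gave 0 with the floor. So did Akr1c14, Akr1c21 and Akr1c6, and genes this dim could show little of such a pattern.

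At the end of the cluster, Akr1e1, an anhydrofructose reductase, read 8.27 and 8.79 in Hif1a-/- cells, against 8.33 and 9.29 in WT cells. Its groups overlapped, with both replicate 2 arrays above both replicate 1 arrays. Its difference of -0.27 (limma p of 0.428) was -0.75 without WT replicate 1 and 0.20 without WT replicate 2. The 3 measured genes on either side of the cluster were Net1 (0.21), Tubal3 (0.07) and Ucn3 (-0.09) before it and Klf6 (-0.09), Pitrm1 (0.26) and Pfkp (-0.28) after it, each value being the log2 difference. Pfkp, a phosphofructokinase of glycolysis, was the only one of the 6 whose groups did not overlap, with the Hif1a-/- arrays lowest. Of all genes, 9.05% had them as the 2 lowest and 15.7% as the 2 highest. The limma p of Pfkp was 0.0822 (0.999 when adjusted), and its difference was -0.17 without WT replicate 1. Net1 gave 0.038, Pitrm1 0.023, Ucn3 0.12 and Klf6 0.26 without WT replicate 1, while Tubal3 gave -0.058 and Pitrm1 0.50 without WT replicate 2.

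**Figure D2:**
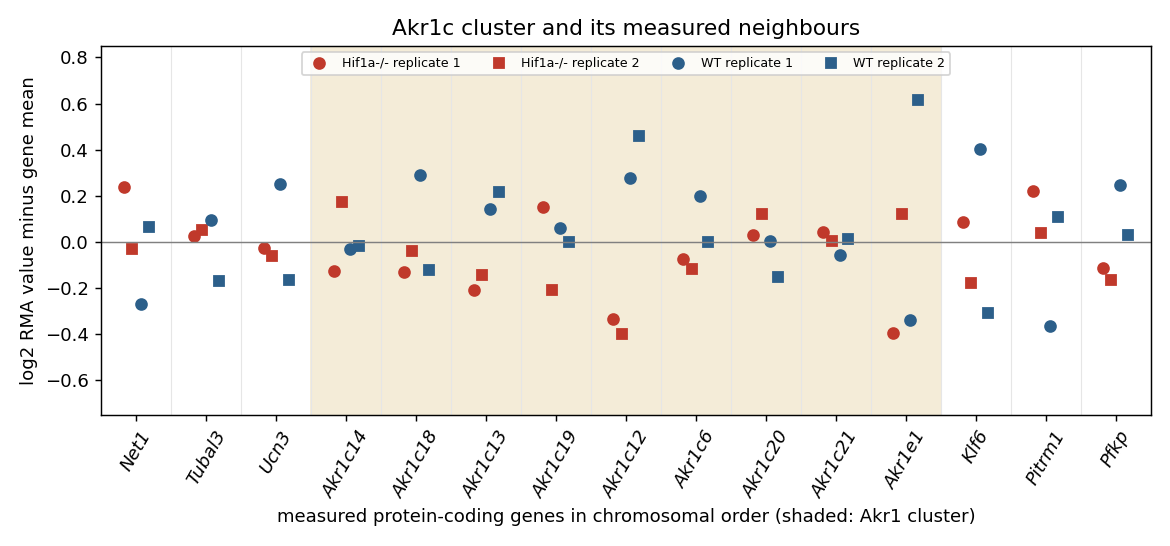
Log2 RMA value of each array minus the gene's mean over the 4 arrays, for the 9 measured genes of the Akr1 cluster (shaded) and 3 measured genes on either side, in chromosomal order; red is Hif1a-/-, blue is WT, circles are replicate 1 and squares replicate 2. The colours are farthest apart for Akr1c12 (difference of -0.73) and next for Akr1c13 (-0.36), and between them Akr1c19 shows mixed colours (-0.06).

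Outside the members, 12 further genes of the superfamily were measured, and their median difference was 0.05, against 0.03 over all genes. That median turned to -0.020 under a second quantile normalization. Of the 12, the Hif1a-/- mean was lower in 4 and higher in 8, beside 7698 and 12240 of all 19938 genes. The Hif1a-/- arrays were the 2 lowest in 0 and the 2 highest in 2, where 9.05% of all genes had them lowest and 15.7% highest. By limma, 0 of the 12 passed an adjusted p of 0.05 and 0 had an unadjusted p under 0.05, where 0% and 1.68% of all genes did. The fit called 0 of all 19938 genes at an adjusted p of 0.05, and 334 had an unadjusted p under 0.05. The count at the adjusted p depends on the arrays used and rose when any array was left out. Such a fit leaves a lone array in a genotype and assumes that it varies like the other group, so its count is not given.

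Akr1a1, the aldehyde reductase of ascorbate synthesis in the mouse, read 12.64 and 12.62 in Hif1a-/- cells, against 12.51 and 12.62 in WT cells, a difference of 0.06 ± 0.12 (SE). Akr1b10, which lies beside Akr1b8 and resembles aldose reductase, read 8.90 and 8.99 in Hif1a-/- cells, against 8.66 and 9.40 in WT cells, so that the WT arrays enclosed the Hif1a-/- arrays as for Akr7a5. The potassium channel beta subunits, which share the fold, differed by 0.10 for Kcnab1, -0.07 for Kcnab2 and 0.06 for Kcnab3. Akr1d1, a steroid reductase of bile acid synthesis, differed by 0.11, and Akr1c14, Akr1c21 and Akr1cl by 0.05, 0.04 and 0.02. The smallest limma p among the 12 genes was that of Akr1c20.

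By distance on the log2 scale, the genes nearest to Akr1c12 over the 4 arrays were not other aldo-keto reductases. Likeness was measured as the root-mean-square distance on the log2 scale after each gene was centred on its own mean. The distance is not scaled, so a gene of the same shape with smaller differences lies farther away. The range of Akr1c12 itself was 0.86 and that of Akr1c13 was 0.43, so neither reached the minimum of 1 used first. The members were left out of both lists of 5 and are ranked after them. Among genes with a range of at least 1 over the arrays, the 5 nearest were Clec9a (0.093), Gpr141b (0.11), P2ry10b (0.16), Gimap4 (0.17) and Ifi205 (0.18), which stood 10th, 14th, 36th, 51st and 56th among all ranked genes. Clec9a encodes a dendritic cell receptor for dead cells. Without a minimum range, a choice made after the values were seen, the 5 nearest were Itgae (0.065), Xcr1 (0.066), P4ha1 (0.072), Slamf7 (0.075) and Tlr3 (0.081). Xcr1 is a chemokine receptor of cross-presenting dendritic cells, and P4ha1 is a collagen prolyl hydroxylase induced in hypoxia. Among 17054 genes ranked without predicted or unnamed transcripts, Akr1c13 stood 82nd at 0.20, Akr1c6 942nd at 0.30, Akr1c18 3733rd at 0.36, Akr1b8 11169th at 0.43 and Akr7a5 14383rd at 0.47. With 4 arrays many genes lie close to any given profile, so these ranks are a description of these arrays only.

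**Figure D3:**
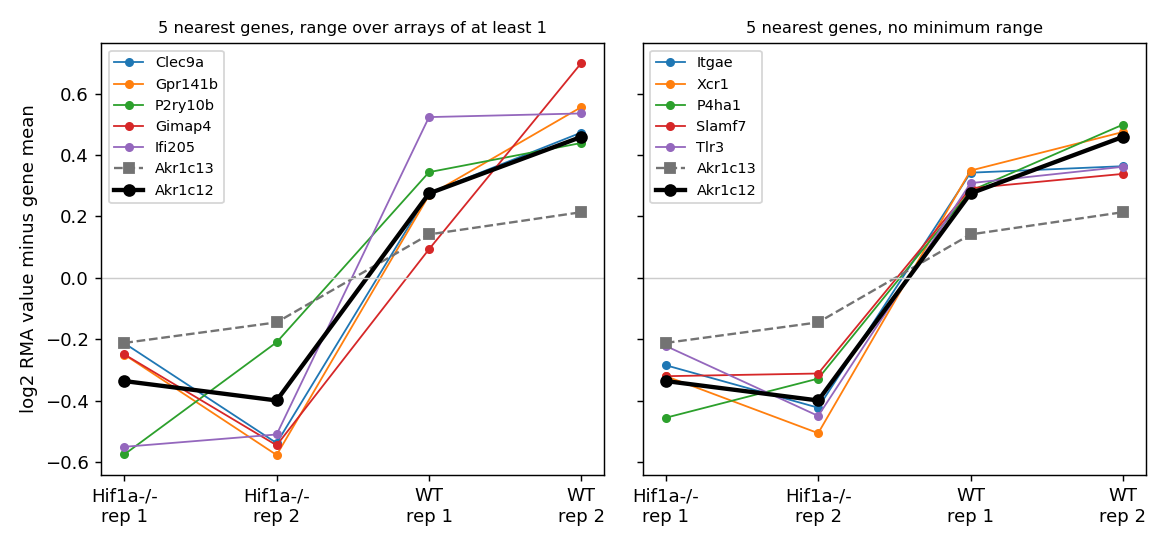
Log2 RMA value minus the gene's mean over the 4 arrays, for Akr1c12 (thick black), Akr1c13 (dashed) and the 5 nearest genes with a range of at least 1 (left) or with no minimum range (right); lines join the values of 1 gene over the Hif1a-/- and then the WT arrays. In both panels the Hif1a-/- points lie below 0 and the WT points above it, and Akr1c13 follows Akr1c12 at a smaller amplitude.

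Marker levels of other cell types also differed between the same arrays. In bulk RNA, fewer cells of a type and less RNA per cell cannot be told apart. Of 12 markers of cross-presenting dendritic cells, a list added after the nearest genes were seen, the Hif1a-/- mean was lower in 10, of which 8 had groups that did not overlap, and 1 gene did not overlap in the other direction. Over all genes, 9.05% had the Hif1a-/- arrays as the 2 lowest and 15.7% as the 2 highest. The Hif1a-/- mean was the lower one in 7698 of all 19938 genes and the higher one in 12240. Of the 12 markers, 4 (Clec9a, Itgae, Xcr1 and Tlr3) are among the nearest genes above, which were picked for this pattern. The median of the list, each gene centred on its mean, was -0.22 and -0.13 on the Hif1a-/- arrays, against 0.26 and 0.23 on the WT arrays. Of 14 mast cell and basophil markers, the Hif1a-/- mean was lower in 14, with 6 that did not overlap. The list median was -0.53 and 0.00028 on the Hif1a-/- arrays, against 0.25 and 0.37 on the WT arrays. Differences in this list ran from -1.63 (Mcpt2) to -0.02 (Prss34). Among the markers that overlapped were Prss34, Mcpt8 (-0.09), Fcer1a (-0.12), Hdc (-0.13) and Ms4a2 (-0.17). Of 10 erythroid and megakaryocyte markers, the Hif1a-/- mean was higher in 9, with 7 that did not overlap, and the list median was 0.34 and 0.11 on the Hif1a-/- arrays, against -0.32 and -0.22 on the WT arrays. The Hif1a-/- mean was lower in 7 of 14 granulocyte and monocyte, 4 of 10 lymphoid and 5 of 12 stromal, endothelial and liver markers, with median differences of 0.04 in each list. The part of these cell types in the values of Akr1c12 and Akr1c13 was not tested.

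The libraries also differed within a genotype. Of the gate's markers, Kit read 10.95 and 10.61 in Hif1a-/- cells, against 10.32 and 11.07 in WT cells, and Ly6a, the Sca-1 gene, was not analysed here. Genes of mature granulocytes, which lineage gates commonly exclude, gave high values on all arrays, with Ly6g at 11.74 and 11.64 in Hif1a-/- cells, against 13.10 and 10.64 in WT cells. Uty, Kdm5d and Eif2s3y, Y-linked genes named after their values were seen, were lowest on Hif1a-/- replicate 2, where Eif2s3y read 7.89, against 9.99 to 10.18 on the other arrays. On that array Akr1c12 and Akr1c13 lay within 0.063 and 0.067 of Hif1a-/- replicate 1. Hif1a itself differed by -0.09 ± 0.13 (SE), and with the deleted part unnamed in the labels this value checks the genotype only weakly.

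Around the family, 6 lists of enzymes and pathways that share its substrates, products or regulators held 124 measured genes, and by limma 0 of them passed an adjusted p of 0.05. The lists' calls depended on which WT arrays were used, as did the calls over all genes. All adjusted p of the genes named from these lists were 0.999. The background for an unadjusted p under 0.05 was 0.978% of all genes lower and 0.697% higher.

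Among 34 other enzymes that handle aldehydes and ketones, the Hif1a-/- mean was lower in 13 and higher in 21, with a median difference of 0.05. The Hif1a-/- arrays were the 2 lowest in 0 of the 34 and the 2 highest in 9, beside 9.05% and 15.7% of all genes. The Hif1a-/- mean was the higher one in 12240 of all 19938 genes. Aldh1a7, an aldehyde dehydrogenase close to the retinaldehyde enzymes, read 7.09 and 7.24 in Hif1a-/- cells, against 6.73 and 6.76 in WT cells. It was the only one of the 34 with an unadjusted limma p under 0.05, at 0.0144 and a difference of 0.42 ± 0.13 (SE). The p was 0.0581 without Hif1a-/- replicate 1 and 0.174 without Hif1a-/- replicate 2, and the gene was dim, with a difference of 0 under the floor. Its retinaldehyde-oxidising relatives Aldh1a1 and Aldh1a3 differed by 0.39 and 0.22, with limma p of 0.0836 and 0.170, and Aldh1a1 by 0.15 without WT replicate 2.

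Of the polyol and fructose pathway genes other than aldose reductase, 3 of 5 were measured. Khk, which phosphorylates fructose, read 9.45 and 9.38 in Hif1a-/- cells, against 8.97 and 9.30 in WT cells. The groups did not overlap, with a difference of 0.28 and a limma p of 0.111, and 0.12 without WT replicate 1. Slc2a5, a fructose transporter, differed by 0.24 (0.13 without WT replicate 2), also without overlap, and Tkfc, a kinase of the sugars that follow, by 0.05 with overlap. Of all genes, 15.7% had the Hif1a-/- arrays as the 2 highest.

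Of 19 prostaglandin genes, the Hif1a-/- mean was lower in 12 and higher in 7, with a median difference of -0.05, and 0 had an unadjusted limma p under 0.05. Over all 19938 genes the mean was lower in 7698 and higher in 12240. Ptger4, a receptor for prostaglandin E2, read 9.84 and 9.60 in Hif1a-/- cells, against 10.00 and 10.01 in WT cells. Its groups did not overlap, with a difference of -0.29 and a limma p of 0.0766, or -0.17 without Hif1a-/- replicate 2. Ptger3, another receptor for it, differed by -0.22 and the prostacyclin receptor Ptgir by -0.28, and without WT replicate 1 these were -0.043 and 0.021.

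Of 25 genes of steroid synthesis, conversion and reception, the Hif1a-/- mean was lower in 9 and higher in 16, with a median difference of 0.02, and 0 had an unadjusted limma p under 0.05. That split lay near the one over all 19938 genes, with 7698 lower and 12240 higher. Hsd17b6, a hydroxysteroid dehydrogenase, read 7.04 and 7.05 in Hif1a-/- cells, against 6.86 and 6.45 in WT cells. The groups did not overlap, with a difference of 0.39 and a limma p of 0.0549, or 0.18 without WT replicate 2 and 0 with the floor. The estrogen receptor Esr1 differed by -0.17 (-0.028 without WT replicate 2) and Hsd11b2, which inactivates glucocorticoids, by 0.13.

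NRF2 is the oxidant-sensing activator to which several aldo-keto reductase genes respond. Of 26 genes of its pathway and targets, 16 read lower and 10 higher on average in Hif1a-/- cells, with a median difference of -0.02, and 0 had an unadjusted limma p under 0.05. Among all 19938 genes, 7698 read lower and 12240 higher. Gclc, the catalytic subunit of glutathione synthesis, differed by 0.36, Gstp1, a glutathione transferase, by 0.26 and Hmox1, heme oxygenase, by -0.38. Without Hif1a-/- replicate 1, Gclc differed by 0.10 and Gstp1 by 0.13, and Gstp1 also by 0.13 without WT replicate 1. Hmox1 read 10.02 and 10.00 in Hif1a-/- cells, against 10.73 and 10.04 in WT cells, and its difference was -0.030 without WT replicate 1.

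Of 17 genes of the interleukin-3 receptor, its signalling and its targets, 10 read lower and 7 higher on average in Hif1a-/- cells, with a median difference of -0.05. Among all 19938 genes, 7698 read lower and 12240 higher. The Hif1a-/- arrays were the 2 lowest in 2 of the 17 and the 2 highest in 2, beside 9.05% and 15.7% of all genes. Pim2, a survival kinase, read 10.67 and 10.73 in Hif1a-/- cells, against 11.44 and 11.05 in WT cells. With the probe set of highest mean for each gene, it was the only one of the 17 with an unadjusted limma p under 0.05. Its limma p was 0.0139 and its difference -0.55 ± 0.16 (SE), or -0.35 without WT replicate 1. With the floor at the 25th percentile, its unadjusted limma p was 0.0762. Socs2 and Cish, feedback inhibitors of the pathway, differed by -0.53 and -0.29, with groups that overlapped for Socs2 only. The differences were -0.16 (Socs2, without WT replicate 2) and -0.14 (Cish, without WT replicate 1). Socs2 had 2 probe sets, and the set of lower mean gave -0.34 with an unadjusted limma p of 0.0435 (0.999 when adjusted).

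**Figure D4:**
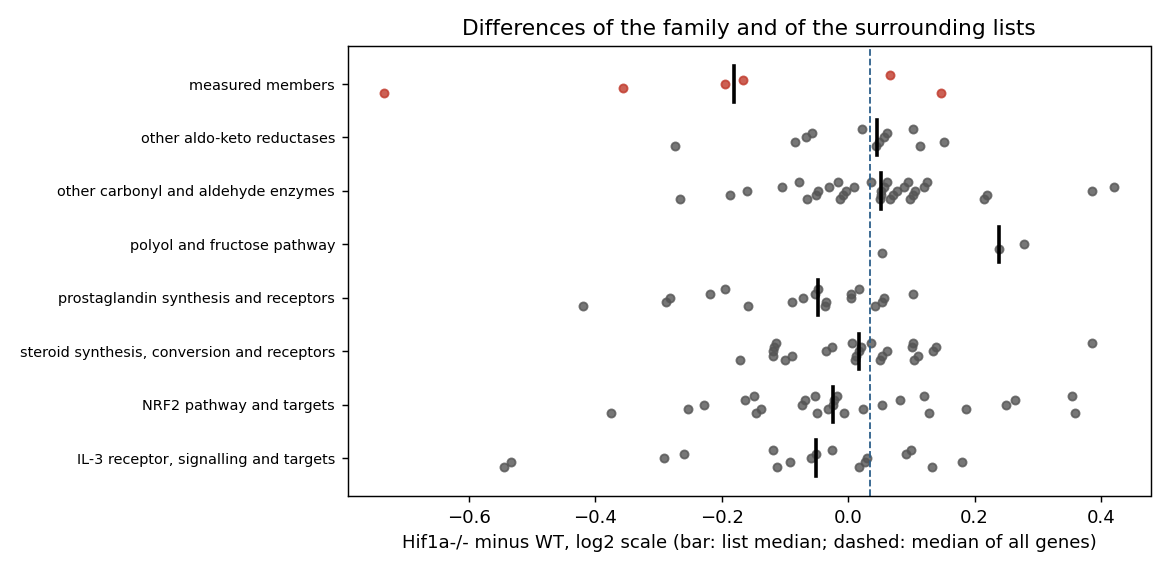
Difference of Hif1a-/- minus WT on the log2 scale for each gene of the measured members (red) and of the lists around them (grey); bars are list medians and the dashed line is the median of all genes (0.03). The points of Akr1c12 (-0.73) and Akr1c13 (-0.36) lie at the left of the top row, and the list medians below it lie between -0.05 and 0.05, except that of the polyol and fructose pathway (0.24).

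The RefSeq promoter windows of the members, 250 bases before to 50 after the start, were searched on both strands for 3 kinds of motif. The cores ACGTG and GCGTG, to which HIF complexes bind, had 0 matches in Akr1c12, Akr1c13, Akr1c18 and Akr1c6, and GCGTG had 1 match each in Akr1b8 and Akr7a5. Of 32851 promoter windows of the same length, 43.8% held either core. The antioxidant response motif TGACNNNGC, present in 12.4% of windows, and the STAT motif TTCNNNGAA, present in 8.3%, had 0 matches in the 6 members. A window without a match says only that these letters are not in it.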

How the data were processed

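The values are log2 expression as the authors deposited them, for 35556 probe sets. The submitters' processing notes name Affymetrix Expression Console 1.1 and RMA, a method that subtracts background, equalises the arrays by quantiles and combines the probes of a set. It compresses differences of dim genes and removes changes in total RNA. The platform annotation gave 21789 probe sets 1 symbol, 1621 several, and left 12146 unnamed here. The set with the highest mean stood for each of 19938 genes.

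Genes were fitted with lmFit and eBayes of limma 3.58.1 (R 4.3.3), genotype being the only term, two-sided, with Benjamini-Hochberg adjustment over all genes at 0.05. The fit had 2 residual degrees of freedom, and the precision is limited by 4 arrays (median SE of 0.14). The procedure was tested on simulated data.

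The members and lists were chosen with earlier results of these data known. The lists held 146 entries, 136 of them measured. Named genes were the members, the other aldo-keto reductases, the 3 smallest p of each other list, Hif1a, the 5 nearest patterns and 3 genes on either side of the cluster. The markers, and the nearest genes without a range minimum, were named outside this rule. Promoter windows were aligned globally with Biopython 1.88 (match 1, mismatch -1, gap opening -3, extension -1). Alternatives were filters, a second normalization, centring, a floor, other probe set rules, other variance models, a replicate block and each array left out.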

Additional observations from a re-analysis of the deposited data

How the results depend on the processing

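The Akr1c12 difference was -0.73 after a second quantile normalization, -0.76 with centred medians and from -0.83 to -0.64 with each array left out, and that of Akr1c13 was -0.35, -0.38 and from -0.39 to -0.32. The filters, the floor, the probe set rules and the block leave both values as they are by construction. With each array left out, the difference ranged from -0.37 to 0.040 for Akr1c18, from -0.030 to 0.16 for Akr1b8 and from -0.16 to 0.45 for Akr7a5. The median of the other aldo-keto reductases was -0.0051 for genes above the 25th percentile of mean level, -0.076 above the median, -0.020 after a second quantile normalization, 0.020 with centred array medians and 0 with the floor, and from 0.015 to 0.058 with each array left out, so its sign is not settled. The count of genes called was 0 in the fit with genotype alone, 2 with a trend and robust variance, 47 with the replicate block, and from 2 to 1442 with each array left out, where the lone array is assumed to vary like the other group. Calls in the pathway lists ranged from 0 to 12 in the same way. The replicate numbers are not stated to pair the samples. The deviations of same-numbered arrays had a correlation of -0.0072 across genes, which are not independent replicates. The block left the pathway calls at 0. Among the tested genes named, the unadjusted limma p with the block followed the size of the difference alone. Akr1e1 (-0.27) and Pfkp (-0.28) had p of 0.172 and 0.169 with the block, against 0.428 and 0.0822 with genotype alone. The 47 calls with the block therefore do not weigh each gene's own spread. Akr1c14 gave -0.018, Akr1c21 -0.022 and Akr1cl -0.035 after a second quantile normalization, and Akr1cl -0.0041 with centred medians. With each array left out, the other tested genes that turned ranged from -0.46 to 0.29 (Akr1b10), -0.10 to 0.20 (Akr1c14), -0.24 to 0.12 (Akr1c19), -0.078 to 0.12 (Akr1cl), -0.019 to 0.25 (Akr1d1), -0.75 to 0.20 (Akr1e1), -0.070 to 0.28 (Kcnab1), -0.060 to 0.17 (Tkfc), -0.59 to 0.021 (Ptgir), -0.011 to 0.28 (Hsd11b2), -0.058 to 0.21 (Tubal3), -0.30 to 0.12 (Ucn3) and -0.45 to 0.26 (Klf6). Of 36 tested genes named, 22 never turned under the alternatives run. The cause of these changes was not tested. Dim signal limits Akr1c6, Akr1b8, Akr1c14, Akr1c19, Akr1c20, Akr1c21, Akr1cl, Akr1d1, Aldh1a7, Hsd17b6 and Tubal3, whose differences were 0 with the floor.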
